A study of Mus musculus with 4 samples.

Results

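The genes described here encode small calcium-binding S100 proteins (S100a4, S100a6, S100a10, S100a11 and S100a13), the annexins Anxa1 and Anxa2, the galectins Lgals1 and Lgals3, and the intermediate filament protein vimentin (Vim). They are 10 of the 24312 genes listed in the deposited table, and all 10 were among the 13008 genes with enough fragments to be tested. They were selected on their measured values in this comparison as well as on their protein families. Their differences between the groups are therefore given as a description of these libraries.

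The series measured poly(A) RNA from P14 CD8 T cells of C57BL/6 background, which carry a transgenic T cell receptor for the gp33 peptide of lymphocytic choriomeningitis virus. Cells of both groups received 100 ng/ml gp33 for 1 day, were spin-transduced with a retrovirus, and went through 1 more day of activation. Both groups then spent 2 days in 10 ng/ml IL-2, were sorted as CD8+ GFP+, and spent another 2 days in 1 ng/ml IL-2. The MIG group (2 libraries) carried the MSCV-IRES-GFP vector alone, and the BATF group (2 libraries) carried the same vector with BATF, a transcription factor of the AP-1 family. The control cells therefore share the vector, GFP, the stimulation and the cytokine, the cells keep their own Batf gene, and transcripts from the vector and from that gene were not separated. The submitters call the libraries of a group biological replicates without saying whether they came from separate mice, so p-values here reflect only how far these libraries spread, and that spread may be technical.

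S100 proteins form dimers that, in most of the family, bind calcium and then attach to other proteins, among them myosin chains and annexins. Annexins bind acidic membrane lipids when calcium is present, and work in membrane repair, trafficking and the resolution of inflammation. Galectins bind beta-galactoside sugars on glycoproteins such as CD45, and vimentin builds the flexible filament network that lymphocytes fold up when they migrate. In CD8 T cells, transcripts of several of these genes are known to be more abundant after activation than in the naive state.

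Library totals ran from 19004726 to 24795707 assigned fragments, and 12871 to 13227 genes had at least 10 fragments. Batf itself was at 51.5 and 36.4 FPKM (fragments scaled by the authors for transcript length and library size) in the MIG libraries. In the BATF libraries it was at 1858 and 1314 FPKM, so every library went with its label. Across all tested genes, 115 were higher and 27 lower in BATF at an adjusted p under 0.05 (quasi-likelihood test of edgeR, Benjamini-Hochberg adjusted). Markers of CD8 T cells were present in every library, with sums of 2620 to 2834 FPKM in MIG and 2360 to 2515 in BATF. Of these, 0 of the 9 tested were called in either direction by edgeR, DESeq2 or limma-voom. At an unadjusted edgeR p under 0.05, 3 were lower in BATF: Cd8a, Cd8b1 and Cd3e, with log2 fold changes of -0.46, -0.29 and -0.20. Of the 9, 8 had a negative fitted difference and 1 a positive one.

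As a group, 5 of the 10 genes rose in BATF at an adjusted p under 0.05: S100a4, S100a6, S100a11, Anxa1 and Vim. Over all tested genes, 0.884% were called higher, and since the genes were picked from this same contrast, nothing is read from that difference. None of the 10 was called lower (0 of 10 by edgeR, DESeq2 and limma-voom, and 0 at an unadjusted p under 0.05), beside 0.208% of all tested genes. The other 5, S100a10, S100a13, Anxa2, Lgals1 and Lgals3, did not pass the test, and their fitted differences were also positive. The median log2 fold change was 0.68 over the 10 genes and -0.0056 over all tested genes, of which 48.5% were positive. In TMM-scaled counts relative to library size (CPM), both BATF libraries lay above both MIG libraries for 7 of the 10 genes, beside 19.2% of all tested genes. Together the 10 genes took 1.18% and 1.16% of all FPKM in the MIG libraries and 1.83% in each BATF library. In these bulk samples, more cells that express a gene and more of its RNA per cell cannot be told apart.

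**Figure D1:**
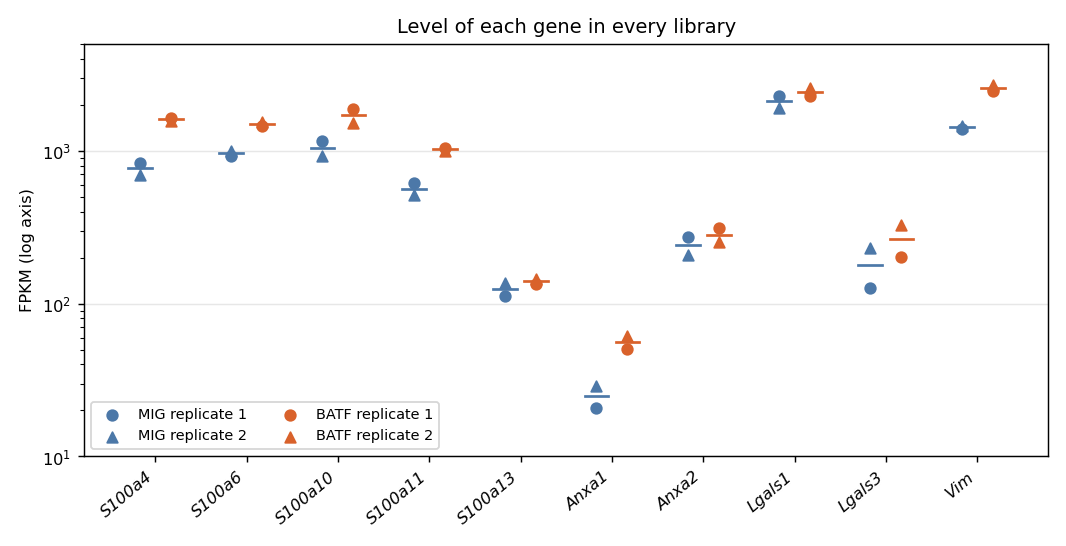
FPKM of each of the 10 genes on a log axis, with 1 point per library (circle, replicate 1; triangle, replicate 2) and a bar at the mean of the 2 libraries of a group. For S100a4, S100a6, S100a10, S100a11, Anxa1 and Vim both BATF points lie above both MIG points, whereas the points of S100a13, Anxa2, Lgals1 and Lgals3 overlap.

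Promoter sequences are shown first for the 5 genes that passed the test, and for Anxa2 because its promoter holds the AP-1 letters, the sequence class that BATF binds with JUN partners. RefSeq sequences of build GRCm38.p6, running from 250 bases before to 50 after each gene's start, were matched for 8 of the 10 genes; S100a10 and Lgals1 were not matched. The stretches are chr3:90603520-90603819 (plus strand), chr3:90612644-90612943 (plus), chr3:93520246-93520545 (plus), chr19:20390622-20390921 (minus), chr9:69453433-69453732 (plus) and chr2:13574061-13574360 (plus). Capitals mark the AP-1 letters TGANTCA. They also mark the TATA box letters TATAAA.
S100a4: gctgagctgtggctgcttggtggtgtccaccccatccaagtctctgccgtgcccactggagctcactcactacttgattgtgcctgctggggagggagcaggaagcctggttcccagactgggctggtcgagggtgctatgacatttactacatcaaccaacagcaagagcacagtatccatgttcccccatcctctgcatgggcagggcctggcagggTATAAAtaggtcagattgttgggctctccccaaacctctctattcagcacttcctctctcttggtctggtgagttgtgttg
S100a6: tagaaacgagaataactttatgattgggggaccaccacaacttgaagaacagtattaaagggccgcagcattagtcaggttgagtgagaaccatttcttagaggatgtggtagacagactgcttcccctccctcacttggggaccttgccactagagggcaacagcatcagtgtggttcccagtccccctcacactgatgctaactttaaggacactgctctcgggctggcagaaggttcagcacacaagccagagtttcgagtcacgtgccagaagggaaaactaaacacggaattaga
S100a11: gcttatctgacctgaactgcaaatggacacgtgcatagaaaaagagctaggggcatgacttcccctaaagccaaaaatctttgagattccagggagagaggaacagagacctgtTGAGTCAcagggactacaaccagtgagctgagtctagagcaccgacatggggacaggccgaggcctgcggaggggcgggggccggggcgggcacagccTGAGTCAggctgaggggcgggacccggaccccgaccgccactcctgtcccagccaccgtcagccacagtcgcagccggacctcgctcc
Anxa1: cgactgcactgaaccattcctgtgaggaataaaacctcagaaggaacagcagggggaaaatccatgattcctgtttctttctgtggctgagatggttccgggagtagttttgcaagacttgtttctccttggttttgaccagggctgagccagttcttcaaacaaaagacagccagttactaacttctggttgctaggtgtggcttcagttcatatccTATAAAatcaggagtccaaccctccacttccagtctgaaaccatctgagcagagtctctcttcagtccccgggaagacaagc
Anxa2: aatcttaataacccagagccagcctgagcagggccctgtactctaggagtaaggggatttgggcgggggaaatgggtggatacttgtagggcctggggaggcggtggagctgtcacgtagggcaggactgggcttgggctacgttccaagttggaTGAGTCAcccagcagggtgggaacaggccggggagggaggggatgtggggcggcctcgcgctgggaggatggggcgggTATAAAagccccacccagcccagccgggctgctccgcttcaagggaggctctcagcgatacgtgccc
Vim: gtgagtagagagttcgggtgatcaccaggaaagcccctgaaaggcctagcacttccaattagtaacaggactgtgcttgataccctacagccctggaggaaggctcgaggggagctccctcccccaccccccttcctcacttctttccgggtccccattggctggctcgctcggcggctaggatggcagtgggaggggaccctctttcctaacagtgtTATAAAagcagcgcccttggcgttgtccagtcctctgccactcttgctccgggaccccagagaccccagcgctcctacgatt

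TGANTCA stood in 2 of the 8 matched promoters and in 7.81% of 32851 mouse promoters of the same length. S100a11 held it at 136 and 38 bases before the start, and Anxa2 held it at 95 bases before the start. Of these, S100a11 rose and Anxa2 did not pass the test. TATAAA stood in 4 of the 8, Vim, S100a4, Anxa1 and Anxa2, and in 13.6% of all promoters. In Vim and Anxa1 it lay 32 bases before the start, in S100a4 31 and in Anxa2 17. The cyclic AMP response letters TGACGTCA were in 0 of the 8 and in 1.79% of all, and the SP1 letters GGGCGG in 3 of the 8 and in 35.7% of all. All 4 patterns were searched on both strands and none contains another, and a match is only a description of the letters in this window.

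S100a4, which binds the heavy chain of non-muscle myosin and is linked to cell motility, was at 835 and 698 FPKM in MIG and at 1641 and 1571 FPKM in BATF. The BATF libraries lay far above the MIG libraries, with no overlap. The log2 fold change was 1.07 (SE 0.10, n = 2 per group; edgeR adjusted p = 0.0093), a 2.1-fold difference in CPM. In the GENCODE transcripts of GRCm38, 56.4% of the 50-base stretches of S100a4 also occur in Gm42674, an overlapping gene model on the same strand that has no row in the deposited table. The sources used here do not give how the authors' counting treated such reads.

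S100a6, also called calcyclin, was at 920 and 1002 FPKM in MIG and at 1446 and 1538 FPKM in BATF. The groups did not overlap. Its log2 fold change was 0.64 (SE 0.09; edgeR adjusted p = 0.0295). Without BATF replicate 2 the log2 fold change was 0.61 and the call was lost (edgeR adjusted p = 0.0826).

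S100a11, a partner of annexin A1, was at 613 and 515 FPKM in MIG and at 1048 and 999 FPKM in BATF, again without overlap. Its log2 fold change was 0.87 (SE 0.10; edgeR adjusted p = 0.0184). Of its 50-base stretches, 41.1% also occur in other genes, the processed pseudogenes Gm12854, Gm7665 and Gm29240, none of which has a row in the table. For the 8 genes other than S100a4 and S100a11, no 50-base stretch was shared with another gene.

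S100a10 does not need calcium and pairs with annexin A2 at the cell membrane. It was at 1166 and 926 FPKM in MIG and at 1885 and 1526 FPKM in BATF. The groups did not overlap, and in each group replicate 1 was the higher library. The log2 fold change of 0.71 (SE 0.14) missed the threshold (edgeR adjusted p = 0.0848). Without MIG replicate 1 or 2 the log2 fold change was 0.86 or 0.57. Without BATF replicate 1 or 2 it was 0.54 or 0.87. Each of these fits leaves 1 sample in a group, and calls in them are not counted as support. DESeq2 called S100a10 higher (DESeq2 adjusted p = 0.000174), as edgeR did without the filter on low counts (edgeR adjusted p = 0.00439).

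S100a13, which takes part in the release of proteins that lack a secretion signal, was at 113 and 136 FPKM in MIG and at 134 and 146 FPKM in BATF. The groups overlapped. Its log2 fold change was 0.18 (SE 0.12; edgeR adjusted p = 0.749).

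Summed over the 17 genes of the S100 list, FPKM was 3660 and 3300 in MIG and 6186 and 5817 in BATF. Almost all of that sum came from the same 5 genes in every library, while 9 of the other 12 were under 1 FPKM in every library. S100a8 and S100a9, the abundant S100 genes of neutrophils and monocytes, were among those 9. Within the family, S100a4 took 22.8% and 21.2% of the sum in MIG and 26.5% and 27.0% in BATF. S100a13 took 3.08% and 4.11% in MIG and 2.17% and 2.51% in BATF. The FPKM ratio of S100a4 to S100a6 was 0.909 and 0.697 in MIG and 1.13 and 1.02 in BATF. By FPKM, S100a6 was thus the higher of the pair in MIG and S100a4 in BATF.

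**Figure D2:**
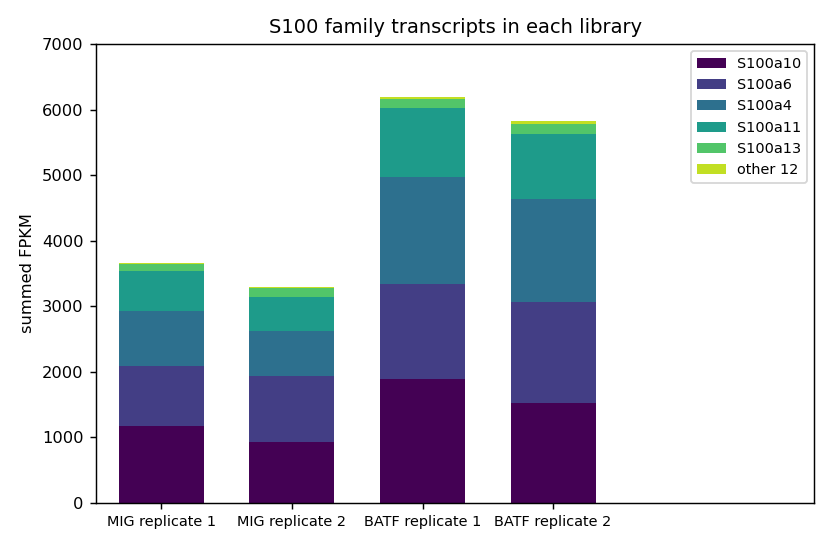
Summed FPKM of the 17 listed S100 genes in each library, stacked by gene with the 12 genes outside the 5 described as 1 segment. The MIG bars reach 3660 and 3300 and the BATF bars 6186 and 5817, and the segments of S100a10, S100a6, S100a4 and S100a11 make up most of each bar.

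Outside those 5, 3 S100 genes had enough fragments to be tested, and edgeR and limma-voom called 0 of them while DESeq2 called 1. At an unadjusted p under 0.05, 2 of the 3 were higher. S100a3, whose gene model is the neighbour of S100a4 on chromosome 3 and contains S100a2, was counted at 10 and 6 fragments for the MIG libraries and 53 and 32 for BATF (0.803, 0.551, 5.33 and 2.85 FPKM). Its log2 fold change of 2.56 (SE 0.48) missed the threshold (edgeR adjusted p = 0.0728), and it is the gene that DESeq2 called (DESeq2 adjusted p = 0.0125). With each library left out in turn, the log2 fold change of S100a3 ran from 2.04 to 2.96. S100a1, whose best known role is in heart and skeletal muscle, was at 10.3 and 17.01 FPKM in MIG and 20.97 and 29.3 in BATF (log2 fold change 0.88, SE 0.29; edgeR adjusted p = 0.283). It passed without MIG replicate 2 (1.31 in log2, edgeR adjusted p = 0.00762) and without BATF replicate 1 (1.09, 0.0243), and not without MIG replicate 1 (0.54, 0.408) or BATF replicate 2 (0.64, 0.634). S100a5 was at 1.25 and 2.04 FPKM in MIG and 2.67 and 3.56 in BATF (0.94 in log2, SE 0.49; edgeR adjusted p = 0.593).

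All 5 S100 genes described lie on mouse chromosome 3, in the order S100a13, S100a4, S100a6, and then, farther along, S100a11 and S100a10 as direct neighbours. S100a3, S100a4, S100a5 and S100a6 follow each other on the same strand, S100a2 lies within the S100a3 gene model, and the fitted differences of the 4 tested were 2.56, 1.07, 0.94 and 0.64 in log2. S100a13 adjoins S100a1, which runs on the opposite strand. The genes flanking Lgals1, Lgals3, Anxa2 and Vim that were tested had log2 fold changes between -0.19 (Trdmt1) and 0.074 (Nol12), and none was called. Rorb, the tested neighbour of Anxa1, had 0.51 (SE 0.37) and was not called. The sources used here do not give the strand setting of the counting. Reads of Anxa1 and the antisense transcript 1500015L24Rik, or of Anxa2 and Gm16144, therefore cannot be told apart where the genes overlap. In the deposited counts 1500015L24Rik has its own row, with too few fragments to be tested, and Gm16144 has none.

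Anxa1 encodes annexin A1, a protein that limits inflammation through formyl peptide receptors. It was the lowest of the 10 genes, at 20.7 and 28.9 FPKM in MIG and 50.4 and 61.7 FPKM in BATF. The groups did not overlap, and its difference, 1.18 in log2 (SE 0.19; edgeR adjusted p = 0.0431), was the largest fitted value among the 10. With each library left out in turn the log2 fold change ran from 0.94 to 1.46.

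Anxa2, the membrane partner of S100a10, was at 274 and 207 FPKM in MIG and at 310 and 255 FPKM in BATF. The groups overlapped, and the log2 fold change was 0.24 (SE 0.15; edgeR adjusted p = 0.688). The FPKM ratio of S100a10 to Anxa2 was 4.25 and 4.47 in MIG and 6.08 and 6.00 in BATF, 2 ranges that do not overlap. The ratio of S100a11 to Anxa1 was 29.6 and 17.8 in MIG and 20.8 and 16.2 in BATF, and these ranges overlap.

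The annexin list holds 10 further genes, of which 6 were tested and 0 were called by edgeR, DESeq2 or limma-voom. Of the 6, 1 was higher at an unadjusted p under 0.05: Anxa4, at 14.1 and 14.8 FPKM in MIG and 19.9 and 17.3 in BATF (0.37 in log2 with an SE of 0.13; edgeR adjusted p = 0.319). The most abundant annexin transcript was Anxa6, at 547 and 444 FPKM in MIG and 484 and 460 in BATF (log2 fold change -0.063, SE 0.10). Fitted log2 fold changes were 0.21 for Anxa11, 0.16 for Anxa7 and -0.043 for Anxa5, and none passed. Without MIG replicate 1 the fitted values of Anxa5 and Anxa6 turned to 0.030 and 0.070.

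Lgals1 encodes galectin-1, a secreted dimer that crosslinks glycoproteins on T cells. At 2298 and 1920 FPKM in MIG and 2282 and 2584 FPKM in BATF, it was the most abundant of the 10 genes in MIG. The groups overlapped in FPKM, where MIG replicate 1 lay above BATF replicate 1. In TMM-scaled CPM they did not, at 1372 and 1190 in MIG and 1404 and 1564 in BATF. The log2 fold change was 0.21 (SE 0.10; edgeR adjusted p = 0.560).

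Lgals3 encodes galectin-3, whose long tail lets it assemble into lattices on N-glycans. It was at 127 and 231 FPKM in MIG and 203 and 328 FPKM in BATF. The libraries of a group differed more for Lgals3 than for any other of the 10 genes, and the groups overlapped. Its fitted difference, 0.57 in log2 with an SE of 0.32, did not pass (edgeR adjusted p = 0.642). Without MIG replicate 2 it was 1.09 (edgeR adjusted p = 0.00218), without BATF replicate 1 it was 0.86 (0.0198), and without MIG replicate 1 or BATF replicate 2 it was 0.18 or 0.19 and did not pass.

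Of 8 further galectin genes, 4 were tested and 0 were called by edgeR, DESeq2 or limma-voom, while 1 was lower at an unadjusted p under 0.05. That gene was Lgals9, which encodes galectin-9 and was at 119 and 102 FPKM in MIG and 91.4 and 86.3 in BATF (log2 fold change -0.31, SE 0.09; edgeR adjusted p = 0.246). With each library left out in turn, the log2 fold change of Lgals9 ran from -0.39 to -0.22. Lgals8 and Lgalsl had log2 fold changes of 0.025 and 0.26, and neither passed.

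Among 18 tested genes for galectin ligands and for enzymes that build their sugars, 1 rose and 0 fell (edgeR adjusted p under 0.05). DESeq2 called 2 higher and limma-voom 1, and before adjustment 3 were higher and 1 lower at p under 0.05 in edgeR. The gene that edgeR called was Havcr2, which encodes the inhibitory receptor TIM-3, a reported ligand of galectin-9. It was at 0.438 and 0.705 FPKM in MIG and 2.94 and 4.98 in BATF (log2 fold change 2.80, SE 0.35; edgeR adjusted p = 0.0229). Ptprc, the gene of CD45, was at 293 and 279 FPKM in MIG and 238 and 232 in BATF, the groups not overlapping (log2 fold change -0.29, SE 0.08; edgeR adjusted p = 0.188). Its log2 fold change ran from -0.32 to -0.26 with each library left out in turn. Spn, the gene of CD43, and Lgals3bp, a secreted galectin-3 binding glycoprotein, had log2 fold changes of 0.050 and -0.22, and neither passed. The enzyme genes Mgat5 and Mgat4b, named after their values were seen, were also higher before adjustment. Their log2 fold changes were 0.95 (SE 0.22) and 0.81 (SE 0.21), and neither passed (edgeR adjusted p = 0.129 and 0.187).

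Vim was at 1397 and 1459 FPKM in MIG and at 2463 and 2700 FPKM in BATF. All BATF values lay well above the MIG values, and the libraries of each group lay close together. The log2 fold change was 0.86 (SE 0.09; edgeR adjusted p = 0.0138), and it ran from 0.80 to 0.91 with each library left out in turn. By FPKM, Vim ranked 88 and 78 among all genes of the MIG libraries and 42 and 35 in BATF.

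Of 9 other intermediate filament genes tested, 0 were called by edgeR or limma-voom and 0 of the 8 that DESeq2 tested, with 1 higher at an unadjusted p under 0.05. The nuclear lamin gene Lmnb1 was at 308 and 298 FPKM in MIG and 311 and 301 in BATF, a log2 fold change of 0.021 (SE 0.077). Lmnb2 had -0.15 and the neurofilament gene Nefh 0.011. The FPKM ratio of Vim to Lmnb1 was 4.54 and 4.89 in MIG and 7.91 and 8.96 in BATF.

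Of 13 tested partners and receptors of S100 proteins and annexins, edgeR and limma-voom called 0, and DESeq2, which tested 11 of them, called 2 higher; before adjustment 3 were higher and 1 lower at p under 0.05. Ahnak, a giant scaffold that binds the complex of S100a10 and annexin A2, was at 57.3 and 50.6 FPKM in MIG and 73.2 and 71.1 in BATF, without overlap. Its log2 fold change of 0.41 (SE 0.08) missed the threshold (edgeR adjusted p = 0.0946). With each library left out in turn it ran from 0.34 to 0.49. DESeq2 called Ahnak higher (DESeq2 adjusted p = 0.0268), as edgeR did without the filter on low counts (edgeR adjusted p = 0.0391). Bsg, reported as a receptor for human S100A9, was at 188 and 177 FPKM in MIG and 219 and 216 in BATF (log2 fold change 0.26, SE 0.08; edgeR adjusted p = 0.245). Myh9, the myosin chain that S100a4 binds, was at 536 and 429 FPKM in MIG and 462 and 452 in BATF (log2 fold change -0.071, SE 0.11), a sign that turned without MIG replicate 1 (0.072).

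**Figure D3:**
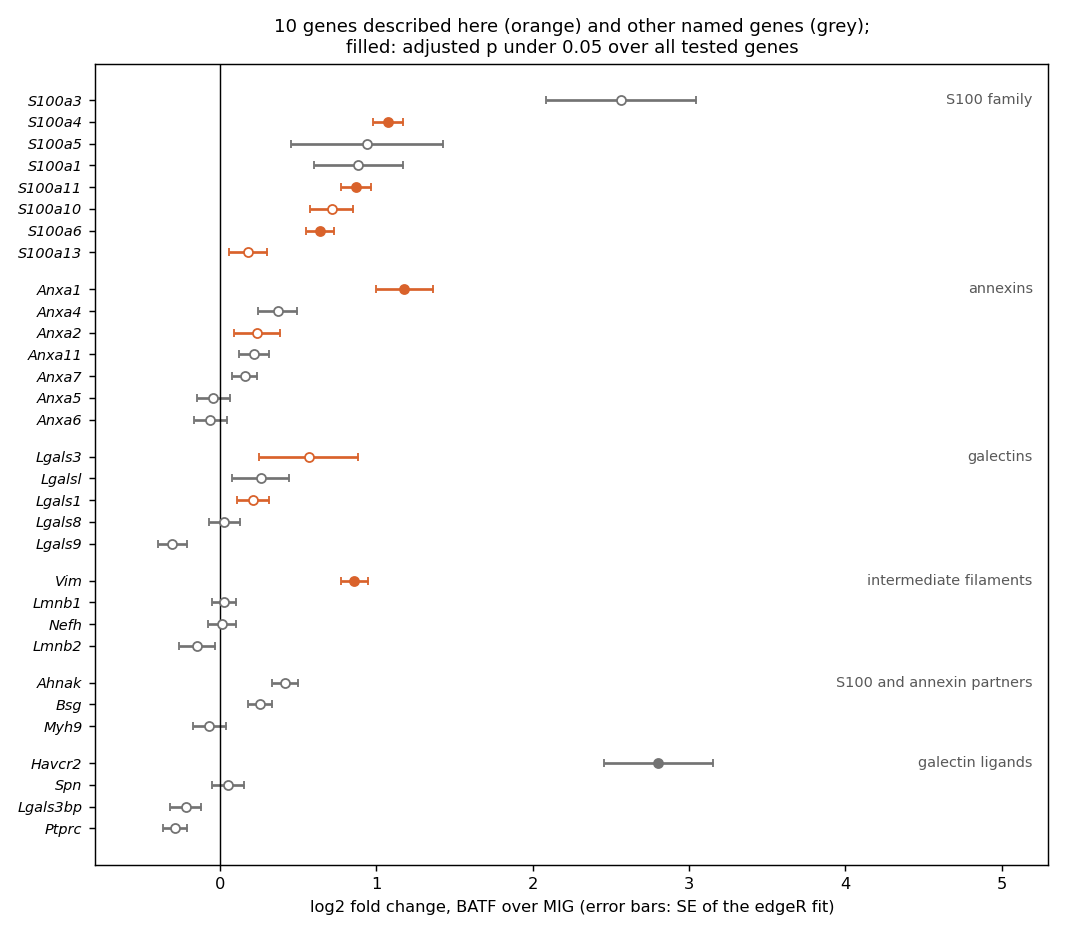
Log2 fold change of BATF over MIG with the SE of the edgeR fit as error bars, for the 10 genes (orange) and the other named genes of each list (grey). Filled points passed an adjusted p of 0.05 over all 13008 tested genes: S100a4, S100a6, S100a11, Anxa1, Vim and Havcr2.

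Ordered by FPKM, a scale that divides by transcript length, the MIG libraries ran Lgals1, Vim, S100a10, S100a6, S100a4, S100a11, Anxa2, Lgals3, S100a13 and Anxa1. Among direct neighbours in that order, S100a10 and S100a6 overlapped in their libraries, as did Anxa2 with Lgals3 and Lgals3 with S100a13. In BATF the order was Vim, Lgals1, S100a10, S100a4, S100a6, S100a11, Anxa2, Lgals3, S100a13 and Anxa1. Among direct neighbours there, Vim overlapped with Lgals1, S100a10 with S100a4, and Anxa2 with Lgals3; S100a10 also overlapped with S100a6, 1 place farther. By group means of FPKM, Vim thus stood above Lgals1 and S100a4 above S100a6 in BATF, the reverse of MIG. In CPM, which is not divided by transcript length, Vim stood above Lgals1 and S100a6 above S100a4 in both groups.

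The replicates of a group differed in a direction that recurred in the other group for 9 of the 10 genes, Lgals1 being the exception. The share of all tested genes with such a recurring direction was not computed, so nothing is read from this count. Over all tested genes, the deviations of the libraries numbered 1 correlated at 0.18 between the groups. S100a4, S100a10, S100a11 and Anxa2 were higher in replicate 1 of both groups. S100a6, S100a13, Anxa1, Lgals3 and Vim were higher in replicate 2 of both. For Lgals3, replicate 2 exceeded replicate 1 by 0.92 in MIG and 0.67 in BATF (log2 of CPM), and for Vim by 0.12 and 0.11. Nothing in the labels says that equal numbers mark a shared mouse, day or batch.

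**Figure D4:**
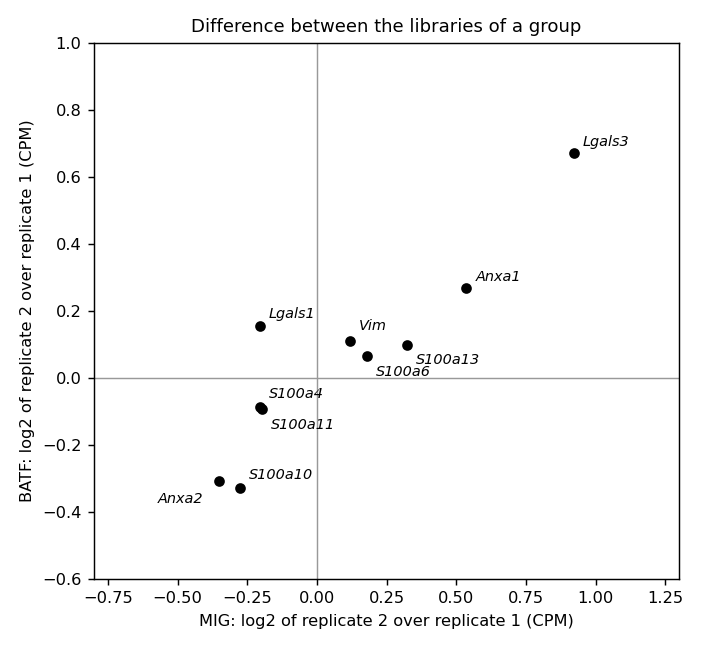
For each of the 10 genes, the log2 ratio of replicate 2 to replicate 1 in MIG (horizontal axis) and in BATF (vertical axis), from TMM-scaled CPM. Lgals3 lies farthest to the upper right at 0.92 and 0.67, Anxa2 and S100a10 lie at the lower left, and Lgals1 is the gene in a mixed quadrant.

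**Figure D5:**
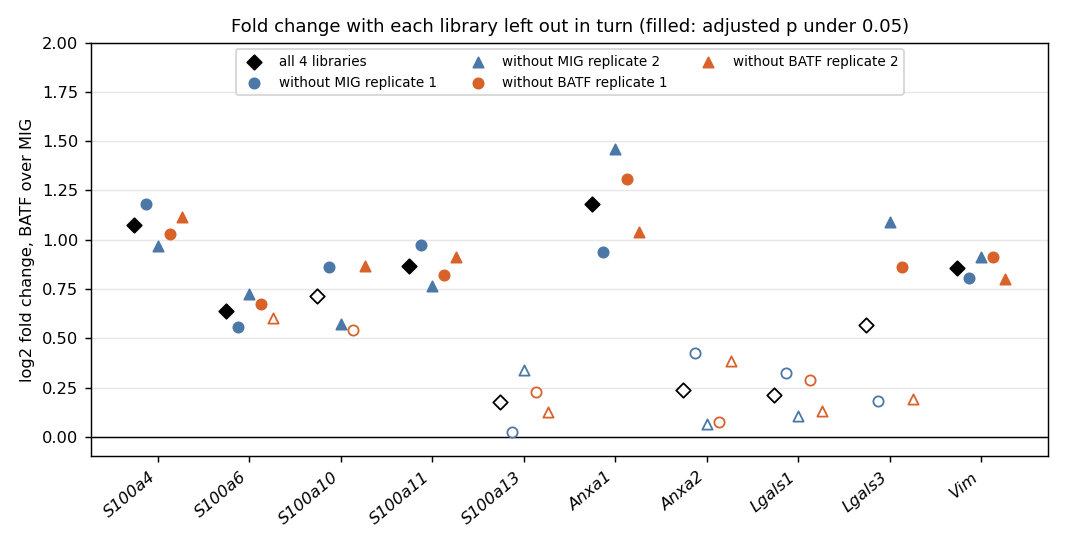
Log2 fold change of BATF over MIG for the 10 genes with all 4 libraries (diamonds) and with each library left out in turn, filled where the edgeR adjusted p was under 0.05. All points lie above 0; S100a6 becomes open without BATF replicate 2, and Lgals3 spreads from 0.18 to 1.09.

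Most markers of other cell types were low. For 12 listed myeloid and dendritic markers, 9 were under 1 FPKM in every library and the summed level was 9.55 to 10.4 FPKM in MIG and 12.7 to 14.8 in BATF. Lyz2, a defining myeloid gene, was at 0.287 and 0.383 FPKM in MIG and 0.180 and 0.0531 in BATF. It had at most 7 fragments per library, too few to be tested. No other listed myeloid or dendritic marker had both BATF libraries below both MIG libraries. Cd68, Itgax, Cd14 and Fcgr1 had both BATF libraries above both MIG libraries, with at most 9 fragments per library for Cd14 and Fcgr1. The sum moved with Itgax, chosen after its values were seen, at 4.73 and 5.46 FPKM in MIG and 8.75 and 8.13 in BATF. For 8 B cell markers the sums were 14.1 to 18.2 FPKM in MIG and 11.9 to 13 in BATF. Of these markers, 7 were under 1 FPKM in every library. The other, Cd79b, was at 17.3 and 13.4 FPKM in MIG and 12.1 and 11.1 in BATF.

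For 4 markers of CD4 and regulatory T cells the sums were 6.00 to 9.28 FPKM in MIG and 10.9 to 14.5 in BATF. Cd4 itself was between 0.170 and 0.266 FPKM, and Zbtb7b, chosen after its values were seen, was at 6.59 and 4.95 in MIG and 12.3 and 9.89 in BATF. Sums of 6 natural killer and gamma-delta markers were 2.403 to 4.02 FPKM in MIG and 1.37 to 3.43 in BATF. Those of 14 stromal, red cell and platelet markers were 23.9 to 31.4 in MIG and 21.5 to 22.7 in BATF. Most of the latter came from Pecam1, chosen after its values were seen, at 28.7 and 18.6 FPKM in MIG and 19.1 and 17.3 in BATF. Among these marker lists DESeq2 called 1 gene of the myeloid list and 1 of the CD4 list higher, and edgeR and limma-voom called 0, while before adjustment 1 gene of each of those lists was higher and 1 of the B cell list lower at p under 0.05. The part of such cells in the differences above was not tested.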

How the data were processed

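The 4 RNA libraries of P14 CD8 T cells, 2 per group, were grouped by the sample titles. The submitters' processing notes name mm9 as the genome build and list TopHat2 2.1.1, Cuffdiff and Cufflinks 2.2.2. The sources used here give neither the gene annotation nor the strandedness, and the library kit is not stated to be directional. The deposited table holds estimated counts of fragments per gene and library from the authors' Cuffdiff run, per the file headers. A second deposited column is a signal in which the authors multiplied each library's estimated counts by 1 factor, and the third is the deposited FPKM, the signal per transcript length. The authors' factors ran from 0.889 to 1.11, and 97.6% of estimated counts were whole (equal to 0 decimals). The table numbers replicates 0 and 1 and the titles 1 and 2; 0 was read as 1, and the number only names a library. Replicates differed by more than counting noise (chi-square per gene 17.7 in MIG and 9.49 in BATF), so none was taken for a second deposit.

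Rounded estimated counts entered edgeR 4.0.16 under R 4.3.3 (filterByExpr, TMM factors from 0.989 to 1.01, glmQLFit and glmQLFTest, no covariate). The Benjamini-Hochberg adjustment covered all 13008 tested genes, and the threshold was 0.05. The SE is the log2 fold change divided by the square root of the F statistic, and levels are the deposited FPKM or TMM-scaled CPM. The biological coefficient of variation was 11.3%. A two-sided permutation test of 2 libraries against 2 cannot give a p below 0.333, so none was run. The alternatives were DESeq2 1.42.0, limma 3.58.1 (voom, and log2(FPKM + 1) and log2(FPKM + 0.1)), other size factors, no filter, a replicate block and leaving out each library. The genes and lists were chosen with earlier results of these data known. Named outside the 10 genes were those of the lists past the threshold and the 3 with the highest FPKM per list. S100, annexin and galectin genes over 10 FPKM on average were also named. Mgat5 and Mgat4b were added after their values were seen. The edgeR script was tested on simulated data. Sequence sharing between transcripts and gene neighbours came from GENCODE for GRCm38, which is not the build of the files, so no position was carried over.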

Additional observations from a re-analysis of the deposited data

How the results depend on the processing

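All 10 genes kept a positive log2 fold change under the 11 alternatives run. The count called higher among all genes was 115, and it became 266 without the filter, 253 with DESeq2, 40 with limma on log2(FPKM + 1), 71 on log2(FPKM + 0.1) and 192 to 320 with each library left out. The count called lower, 27, became 83, 92, 4 and 10 in that order, and 55 to 269 with each library left out. Of the 10 genes, 5 were called higher, against 6 without the filter and 6 with DESeq2 (S100a10 added), 1 (S100a4) on log2(FPKM + 1) and 3 on log2(FPKM + 0.1), where S100a6 and Anxa1 were lost, and 5 to 7 with each library left out. Of the family and partner genes outside the 10, 1 was called higher in the reported fit, 4 without the filter, 5 with DESeq2, 0 on log2(FPKM + 1), 2 on log2(FPKM + 0.1), and 2 to 6 with each library left out. The count lower outside the 10 ran from 0 to 2 with each library left out, 2 without MIG replicate 2. Signs turned for Anxa5 (-0.15 to 0.054), Anxa6 (-0.19 to 0.070), Lgals8 (-0.048 to 0.10), Lmnb1 (-0.013 to 0.056), Nefh (-0.0087 to 0.030), Myh9 (-0.21 to 0.072) and Spn (-0.060 to 0.17), all log2 fold changes with each library left out. The cause was not tested. DESeq2's size factors in place of TMM shifted the median of all genes by 0.00107 (log2) and changed no call of a named gene.

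With the replicate number as a block, 916 genes were called higher and 588 lower, with 8 of the 10 genes higher, and 12 genes higher and 4 lower outside the 10. The libraries share only a number, the deviations of the libraries numbered 1 correlated at 0.18 between the groups, and the block leaves 1 residual degree of freedom. Leaving out a library leaves 1 sample in a group, assumed to vary like the other group. With 2 libraries a group, a difference that did not pass is not shown to be absent, and S100a3, S100a5 and Havcr2 rest on few fragments.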
